A study of Mus musculus with 15 samples.

Results

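The mesendoderm lineage genes described here are T, Eomes, Mixl1, Gsc, Evx1, Mesp1, Foxa2, Fgf8, Cer1 and Lhx1. They were selected by gene symbol, and all 10 were found among the 21662 genes counted in both tables. RNA-seq was performed on mouse embryonic stem cells (ESC) of a mixed 129Sv-C57Bl/6 background, kept undifferentiated in serum and LIF, in 15 samples of 6 groups. The KO experiment held 3 samples of WT cells, 2 of Hmga1 KO cells, 2 of the Hmga1 add-back and 2 of the Hmga2 add-back. A second set, the full-deletion experiment, held 3 samples of its own WT cells and 3 of a line without the coding sequence of Hmga1. The KO line is a clone with Cas9-made frameshifts, and both add-backs are KO cells carrying a biotin-tagged Hmga1 or Hmga2 cDNA under the CAG promoter at 1 genomic site. The parental line of the tagged cells carries the biotin ligase BirA, also driven by CAG. Each genotype is a single cell line, so replicates are separate cultures of that line and a difference between lines cannot be told apart from a difference between clones. Samples are named by their letter, which in the KO experiment also marks the batch (library day and flow cell), and WT c was alone in batch c.

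At gastrulation, cells of the epiblast enter the primitive streak and leave it as mesoderm or definitive endoderm, and cells at this step are called mesendoderm. Nodal, Wnt and BMP signals start the programme, and transcription factors of the T-box, homeobox and forkhead families carry it out. ESC kept in LIF are held short of this programme, although serum cultures can hold scattered cells that have left pluripotency. In bulk RNA, fewer cells with a transcript and less transcript per cell cannot be told apart.

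The mesendoderm genes were barely transcribed in any of the 6 groups, and the loss of Hmga1 changed none of them past the threshold used here (adjusted p under 0.01 and at least 2-fold, edgeR's quasi-likelihood test). Eomes, Mixl1 and Foxa2 were the 3 of 10 that had the mean count of at least 10 needed for testing in the KO experiment. Only Eomes and Mixl1 had it in the full-deletion experiment. Summed over all 10 genes, the level in CPM (counts scaled to library size, with TMM factors set within each experiment) was between 4.91 and 9.09 across the KO experiment. It was lower, between 1.78 and 4.32, across the full-deletion experiment.

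Hmga1 and Hmga2 bind DNA through AT-hooks and favour AT-rich sequence, so the base composition of the genes was measured. In the NCBIM37 (mm9) genome the 10 genes had an AT content between 36.8% and 55.9%, with a median of 46.5% against 54.3% over the 19319 genes with a position (89.2% of those counted). Cer1, a secreted inhibitor of Nodal and BMP at chr4:82527655-82531052 on the minus strand, was the 1 gene above that median. Within windows of 100000 bases around their starts the median was 54.5% against 55.6%, and 7 of 10 lay below. No other annotated gene overlapped any of the 10 on the same strand. The RefSeq promoter table (GRCm38.p6, 250 bases before to 50 bases after a start site, gene strand) held 10 promoters of 8 of these genes, without Mixl1 and Fgf8. The Eomes and Lhx1 promoters are shown because they were the richest and the poorest in AT of the 10. Eomes had 52.7% AT (69.2% of all 32851 promoters had less) at chr9:118477939-118478238 on the plus strand, and Lhx1 had 34.3% (16.3% had less) at chr11:84525485-84525784 on the minus strand. The Mesp1 promoter, at chr7:79793541-79793840 on the minus strand, is shown because it was the only one to hold 2 of the 3 motifs searched, which stand in capitals.
Eomes promoter: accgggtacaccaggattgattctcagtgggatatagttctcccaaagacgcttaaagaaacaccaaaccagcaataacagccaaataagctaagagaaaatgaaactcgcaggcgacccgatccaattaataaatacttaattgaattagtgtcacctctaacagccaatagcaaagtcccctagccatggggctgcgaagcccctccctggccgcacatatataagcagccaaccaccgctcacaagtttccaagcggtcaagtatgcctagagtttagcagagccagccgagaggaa
Lhx1 promoter: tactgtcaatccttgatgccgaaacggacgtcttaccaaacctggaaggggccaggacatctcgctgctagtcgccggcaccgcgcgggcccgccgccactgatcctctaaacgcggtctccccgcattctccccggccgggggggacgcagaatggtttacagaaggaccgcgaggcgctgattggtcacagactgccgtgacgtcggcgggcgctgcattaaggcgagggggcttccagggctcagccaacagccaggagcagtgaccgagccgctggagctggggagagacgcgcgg
Mesp1 promoter: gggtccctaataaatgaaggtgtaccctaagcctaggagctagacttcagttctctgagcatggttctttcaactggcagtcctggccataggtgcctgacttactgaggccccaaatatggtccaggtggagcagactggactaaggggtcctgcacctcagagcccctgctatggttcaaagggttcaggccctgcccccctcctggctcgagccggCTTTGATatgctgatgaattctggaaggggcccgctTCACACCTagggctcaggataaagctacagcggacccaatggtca
The motifs were searched on both strands. The T-box motif AGGTGTGA was in 1.28% of all promoters and here in Mesp1 only, on the minus strand (TCACACCT as printed). The TCF/LEF site CTTTGAT, the site of the factors that Wnt signals act through, was in 3.73% of all promoters and here in Mesp1, 31 bases before the start site, and in 1 of 3 Foxa2 promoters, 14 bases after it. The FOXH1 site AATNCACA, bound by a cofactor of Nodal signals, was in 3.60% of all promoters and in none of these. A match is a run of letters and says nothing of binding.

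Levels between genes were compared per length, as RPKM, which is CPM divided by the exon length in kilobases. In WT of the KO experiment, Foxa2 (0.709 ± 0.099 RPKM, SD, n = 3), Mixl1 (0.697 ± 0.266) and Eomes (0.687 ± 0.121) stood highest, and these neighbours did not differ beyond their spread. T followed with 0.219 ± 0.114 RPKM. Mesp1 (0.139 ± 0.135), Evx1 (0.133 ± 0.115), Gsc (0.126 ± 0.056), Fgf8 (0.102 ± 0.037), Lhx1 (0.0825 ± 0.0512) and Cer1 (0.0824 ± 0.0588) lay within each other's spread. The genes that define ESC were far above these. Pou5f1 (Oct4) had 574 ± 48 RPKM, Sox2 314 ± 54 and Nanog 149 ± 39 in the same samples. Nodal, the ligand that induces mesendoderm, had 13.6 ± 1.1 RPKM, and its obligate co-receptor Tdgf1 (Cripto) had 510 ± 122. On the study's scale for expression (log2 of length-scaled counts plus a pseudocount of 8, where a count of 0 gives 3), no mesendoderm gene reached the value of 7 in any sample. Eomes came nearest with 6.13 in the KO experiment, where 8858 to 9754 genes reached 7 per sample.

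**Figure D1:**
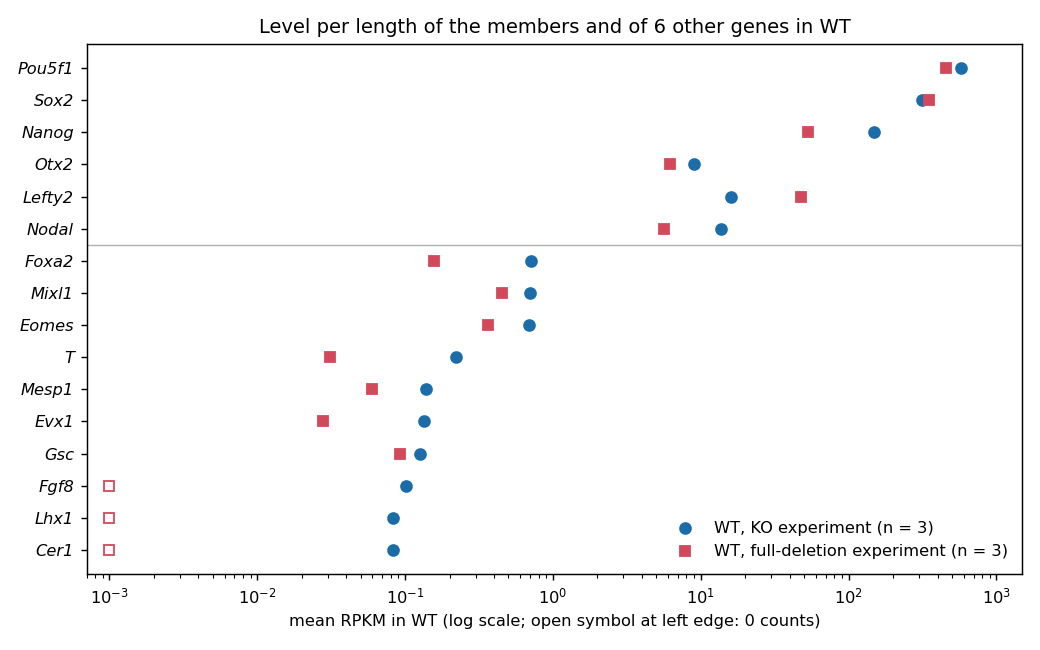
Mean RPKM in WT (log axis) of the 10 mesendoderm genes, below the line, and of 6 genes for comparison, above it, with circles for the KO experiment and squares for the full-deletion experiment (n = 3 each). All mesendoderm genes lie under 1 RPKM, and open squares mark the 3 genes (Fgf8, Lhx1, Cer1) with 0 counts in WT of the full-deletion experiment.

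Depth set what could be seen. Samples of the KO experiment had 13465399 to 34952136 counts in sum and those of the full-deletion experiment 14832310 to 21708492, so that 1 count was worth between 0.0281 and 0.0776 CPM. Batch b held the shallow libraries of the KO experiment, and a count of 0 there allows up to 0.233 CPM (3 counts) in WT b. Intervals and limits below cover counting error only. Pooled count ratios, from counts summed over each group, take no account of batch, and those to WT of the KO experiment include WT c. WT b of the full-deletion experiment stood apart, with 8.78% of its counts in its top 10 genes against 4.67% to 5.38% in the other 5 samples. Hmga1 was at 310 to 357 CPM in WT and 10.9 to 12.3 CPM in the full deletion, as labelled, and Hmga2 was at 222 to 249 CPM in its add-back against 12.8 to 23.8 CPM in WT. In the KO experiment Hmga1 was at 221 to 464 CPM in WT and at 217 and 96.1 CPM in KO a and b, where a frameshift need not remove the transcript. The libraries labelled Hmga1 add-back had 184 and 123 CPM of Hmga1, below every WT sample, below KO in batch a and above it in batch b. The counts therefore do not show the added Hmga1 cDNA. The paper reports a Western blot in which this line had Hmga1 protein at about the WT level. For these libraries, every direction given for this line rests on its label.

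Eomes, a T-box factor of definitive endoderm and cardiac mesoderm that also acts in trophoblast (chr9:118387330-118395250, plus strand, NCBIM37), was the best counted of the 10. WT a, b and c gave 85, 32 and 83 counts, KO a and b 93 and 48, the Hmga1 add-back 142 and 55, and the Hmga2 add-back 181 and 65. Scaled, this was 2.87 ± 0.51 CPM (SD, n = 3) for WT, 3.13 ± 0.73 (n = 2) for KO, and 4.10 ± 0.03 (n = 2) and 4.97 ± 0.55 (n = 2) for the Hmga1 and Hmga2 add-backs. KO and WT samples overlapped, whereas every sample labelled as an add-back lay above every WT and every KO sample. The log2 fold change over WT was 0.24 in KO (SE 0.28, adjusted p = 0.779). The Hmga1 add-back differed from WT by 0.66 (SE 0.28, unadjusted p = 0.0459 by edgeR, adjusted p = 0.368) and the Hmga2 add-back by 0.94 (SE 0.28, unadjusted p = 0.00887 by edgeR, adjusted p = 0.182), with a 95% interval of 0.31 to 1.58 for the latter. Neither passed the adjustment over 13912 genes, and these fits take nothing on the contrast from WT c, which has a batch of its own. The same direction was seen within each batch. The Hmga1 and Hmga2 add-backs were at 152% and 199% of WT a within batch a, and at 166% and 184% of WT b within batch b. The KO samples were at 97.1% of WT a and 147% of WT b. Against KO, the Hmga1 add-back differed by 0.42 (SE 0.28, adjusted p = 0.9999) and the Hmga2 add-back by 0.71 (SE 0.27, adjusted p = 0.877).

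The summed level of 10 trophoblast markers was read beside Eomes. WT a, b and c had 89.3, 103 and 88.9 CPM, KO 151 and 94.1, the Hmga1 add-back 202 and 96.2, and the Hmga2 add-back 211 and 87.7. Within batch a the sum was thus higher in KO and both add-backs than in WT, and within batch b it was below WT b in all 3 lines while Eomes was above WT b. Most of the sum came from Tfap2c, which ESC also transcribe. Ascl2 and Esx1, a trophoblast and a placental transcription factor, were the 2 of 10 that lay, like Eomes, above every WT sample in both add-backs. Counted per line, 3 of 10 lay above every WT sample and 2 below for the Hmga1 add-back, against 7.91% and 7.72% of all genes. For the Hmga2 add-back 2 lay above and 3 below, against 10.9% and 11.0%. The share of all genes above WT in both lines was not measured. Both lines are KO cells and share their WT samples. Ascl2 was at 0.955 to 1.55 CPM in WT and 2.18 to 3.23 CPM in the add-backs, and at 2.33 to 2.96 CPM in KO, where Eomes overlapped WT. Esx1 was at 0.0830 to 0.388 CPM in WT and 0.450 to 0.948 CPM in the add-backs. Cdx2 and Elf5, which define trophoblast, had group means of at most 0.578 and 0.148 CPM in WT and KO of this experiment and were at 0 in at least 1 Hmga2 add-back sample. The part of these genes in the Eomes level was not tested.

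WT a, b and c of the full-deletion experiment gave 41, 10 and 41 Eomes counts, and the deletion gave 33, 46 and 48. This was 1.95, 0.613 and 1.98 CPM in WT and 2.00, 1.99 and 2.18 CPM in the deletion. The groups did not overlap, but 2 of 3 WT samples lay just under the deletion and the low value was that of WT b, the library that stood apart. The log2 fold change was 0.41 (SE 0.39, adjusted p = 0.450), and 0.07 without WT b. An exact permutation test of the mean CPM gave p = 0.1, two-sided, the smallest that 3 against 3 samples allow. Groups without overlap always give this value, so the test adds nothing to that order.

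T (Brachyury), the T-box factor of the primitive streak and notochord (chr17:8627288-8635361, plus strand), gave 8, 5 and 17 counts in WT of the KO experiment and 4 and 0 in KO. The Hmga1 add-back gave 3 and 1 counts, and the Hmga2 add-back 10 and 1. KO and the Hmga1 add-back lay below all WT samples, and the Hmga2 add-back overlapped WT. The pooled count ratio of KO to WT was 0.188, with a 95% counting interval of 0.0480 to 0.532, and that of the Hmga1 add-back was 0.190 (0.0486 to 0.539). WT c held 17 of the 30 WT counts and has no KO or add-back sample in its batch. Within batches a and b, KO was at 44.4% and 0% of WT, and the Hmga1 add-back at 34.1% and 19.3%. In the full-deletion experiment T had 3, 0 and 1 counts in WT and 0, 2 and 3 in the deletion, a ratio of 1.18 whose interval (0.254 to 5.94) covers both directions. With a mean of 5.44 counts T was not tested, and without the filter on low counts its adjusted p in KO against WT was 0.608.

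Mixl1, a homeobox factor of the primitive streak (chr1:182623174-182627165, minus strand), had 66, 23 and 22 counts in WT. KO had 62 and 12, the Hmga1 add-back 47 and 14, and the Hmga2 add-back 61 and 11. Scaled for depth, these were 1.59 ± 0.61 CPM for WT, 1.33 ± 0.59 for KO, and 1.20 ± 0.21 and 1.29 ± 0.73 for the Hmga1 and Hmga2 add-backs, and all groups overlapped. The log2 fold change over WT was -0.55 for KO (SE 0.38, adjusted p = 0.581), and -0.70 (adjusted p = 0.460) and -0.59 (adjusted p = 0.427) for the Hmga1 and Hmga2 add-backs. In the KO experiment, batch a samples of KO and both add-backs were each above their batch b samples. With 19, 13 and 29 counts in WT and 18, 31 and 23 in the deletion, the full-deletion experiment gave a log2 fold change of 0.16 (SE 0.31, adjusted p = 0.721, 95% interval -0.56 to 0.88).

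Gsc (Goosecoid), a homeobox factor of the organizer (chr12:105709419-105711537, minus strand), had 5, 1 and 5 counts in WT and 7 and 1 in KO. The Hmga1 add-back had 16 and 3 counts and the Hmga2 add-back 13 and 3. As for Eomes, every sample labelled as an add-back had a higher CPM than every WT and every KO sample (0.211 to 0.460 CPM against 0.0760 to 0.208 CPM). Pooled counts gave 2.46 times WT (counting interval 1.11 to 5.72) and 2.08 times WT (0.907 to 4.96) for the Hmga1 and Hmga2 add-backs. The edge of that separation is a single count, since 1 count in batch b is worth over 0.07 CPM. The full-deletion experiment had 2, 3 and 1 counts in WT and 4, 2 and 3 in the deletion, which overlapped.

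Evx1, a homeobox factor of the posterior streak (chr6:52263492-52268372, plus strand), had 18, 0 and 14 counts in WT. Both KO samples and both Hmga2 add-back samples had 0 counts, and the Hmga1 add-back had 0 and 4. The pooled count ratio to WT was thus 0, with a counting interval up to 0.172 for KO and up to 0.175 for the Hmga2 add-back. WT b also had 0 counts, so the groups overlapped, and the difference rests on WT a and WT c. Without the filter on low counts, the adjusted p of KO against WT was 0.482. WT of the full-deletion experiment had 3, 0 and 2 counts and the deletion 1, 1 and 0.

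Lhx1, a LIM-homeobox factor of the node and the axial mesendoderm (chr11:84331479-84338923, minus strand), had 4, 5 and 4 counts in WT and 2 and 2 in KO. The Hmga1 add-back had 2 and 7 counts and the Hmga2 add-back 10 and 3. Both Hmga2 add-back samples lay above both KO samples, with a pooled ratio of 3.31 (counting interval 1.02 to 13.9). All groups overlapped WT. The full-deletion experiment gave 1 count in all, in deletion b.

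**Figure D2:**
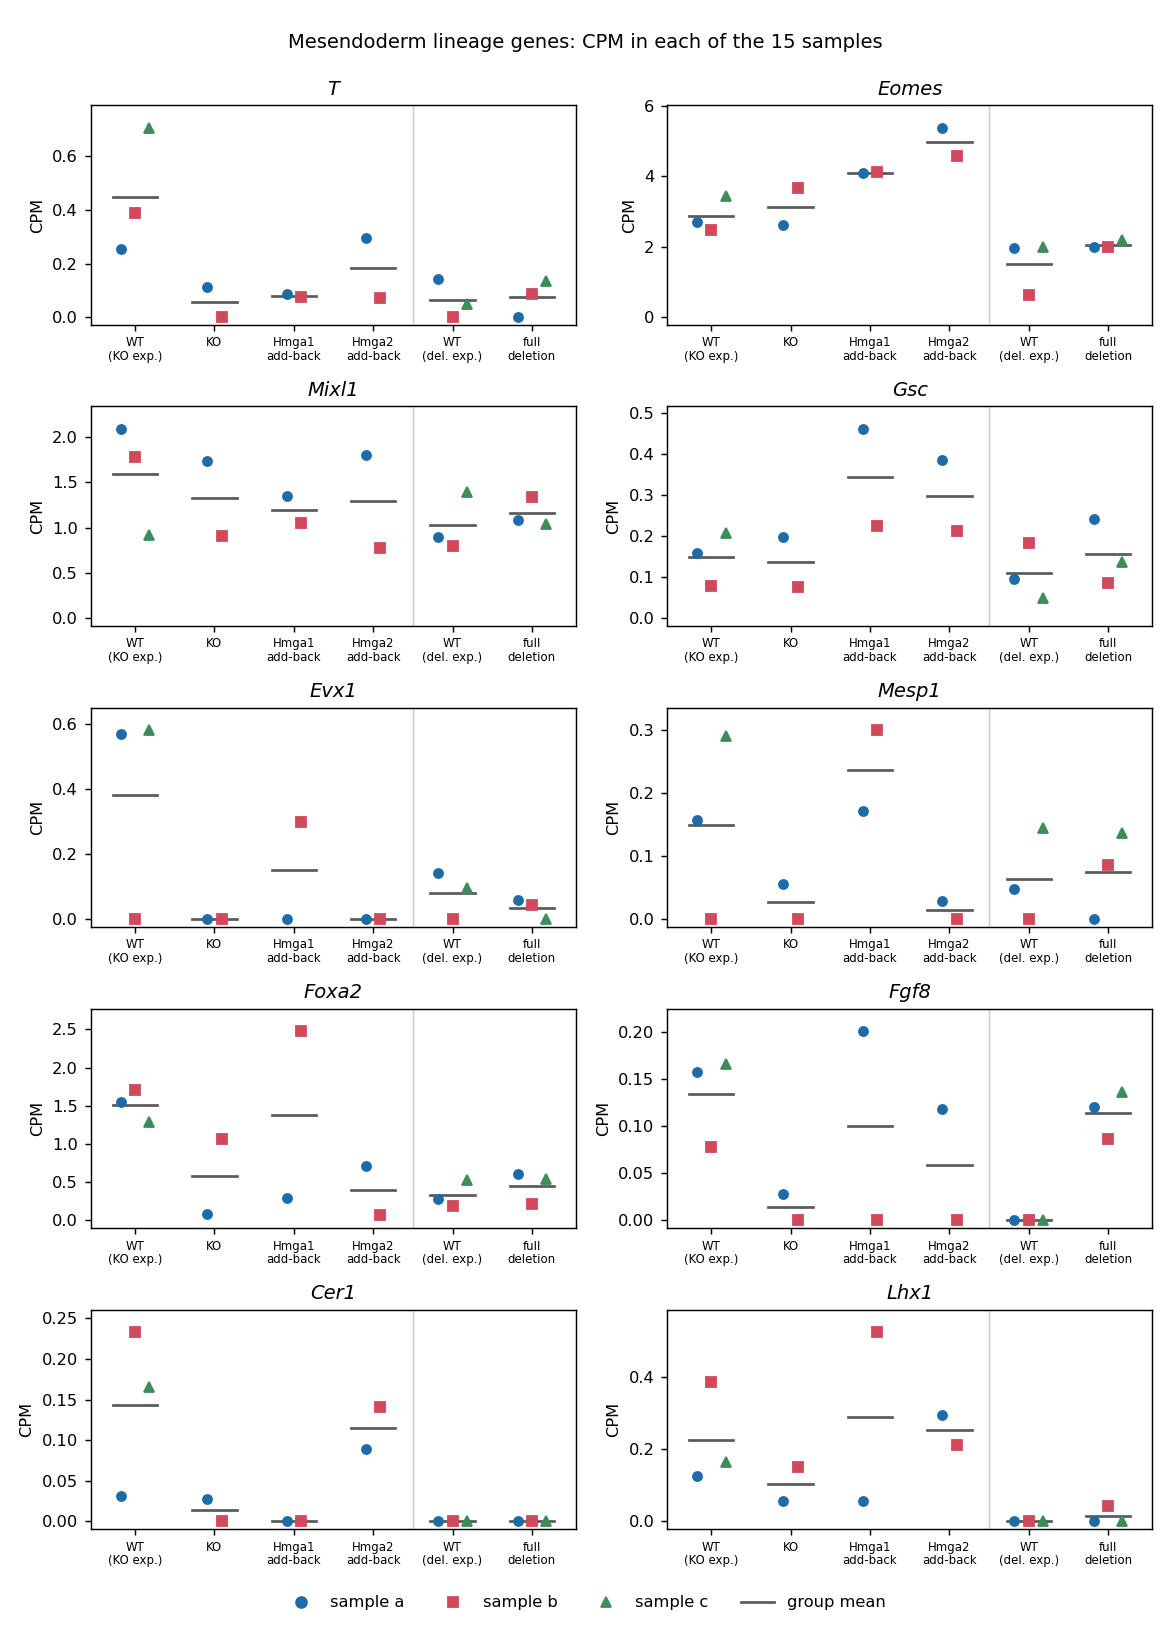
CPM (linear axis from 0, a separate range for each gene) of the 10 mesendoderm genes in every sample, with symbols for the sample letter, a bar for the group mean and a vertical line between the KO experiment (left) and the full-deletion experiment (right). Eomes and Gsc are higher in both add-backs than in every WT sample of the KO experiment, and Cer1 has 0 counts in all 6 samples of the full-deletion experiment.

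Mesp1, a basic helix-loop-helix factor of the earliest cardiac mesoderm (chr7:86937127-86938674, minus strand), had 5, 0 and 7 counts in WT and 2 and 0 in KO. The Hmga1 add-back had 6 and 4 counts, and the Hmga2 add-back 1 and 0. The line labelled Hmga1 add-back lay above both KO samples, with a pooled ratio of 5.07 and a counting interval of 1.08 to 47.6, and no other pair of groups of the KO experiment separated for this gene in the comparisons made. In the full-deletion experiment WT had 1, 0 and 3 counts and the deletion 0, 2 and 3.

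Foxa2, a forkhead factor of the anterior streak and the endoderm that is also active in extraembryonic visceral endoderm (chr2:147868613-147872705, minus strand), varied most among the tested genes. WT a, b and c had 49, 22 and 31 counts (1.55, 1.71 and 1.29 CPM), and KO a and b had 3 and 14 (0.0842 and 1.06 CPM). The Hmga1 add-back had 10 and 33 counts (0.287 and 2.47 CPM) and the Hmga2 add-back 24 and 1 (0.711 and 0.0704 CPM). KO and the Hmga2 add-back lay below all WT samples, while the samples of each KO-derived line differed from each other more than the WT samples did. Relative to WT of the same batch, KO a was at 5.4% and KO b at 62.3%. The Hmga1 add-back was at 18.5% and 145%, and the Hmga2 add-back at 45.9% and 4.1%. The log2 fold change of KO over WT was -2.09 with an SE of 1.11 (adjusted p = 0.475, 95% interval -4.63 to 0.45). It was -3.93 without KO b and -0.94 without KO a. The Hmga2 add-back differed from WT by -1.62 (SE 1.04, adjusted p = 0.428) and the Hmga1 add-back by -0.75 (SE 0.997, adjusted p = 0.760). In the full-deletion experiment Foxa2 fell under the filter, with 6, 3 and 11 counts in WT and 10, 5 and 12 in the deletion, and the groups overlapped.

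The 15 primitive endoderm markers, which label the extraembryonic endoderm that can arise in ESC cultures, were summed in each sample and read beside Foxa2. Their sum was 1165, 860 and 1040 CPM in WT. KO a and b had 462 and 885 CPM, the Hmga1 add-back 598 and 1351, and the Hmga2 add-back 778 and 667. The sample with the lower sum was in each of these 3 lines also the one with the lower Foxa2. Single markers had the order of Foxa2 in 14 of 15 cases in KO, 14 of 15 in the Hmga1 add-back and 11 of 15 in the Hmga2 add-back, where Gata6, Pdgfra, Afp and Sparc had the opposite one. Gata6, for example, was there at 1.93 CPM in a and 2.68 CPM in b. Of the 29 genes of the Nodal, Wnt, BMP and Fgf signals, 17, 18 and 12 had the order of Foxa2 in these 3 lines. It was found in 16, 15 and 13 of 23 further genes of mesoderm and endoderm, and in 3, 4 and 8 of 12 pluripotency genes. The share over all genes was not measured. The order did not hold among WT samples, where WT b had the highest Foxa2 and the lowest sum. Sparc, Lama1 and Lamb1 made up most of the sum, and Afp had a mean of 0 CPM in KO. The part of such cells in the Foxa2 level was not tested. In the full-deletion experiment the sum was 441 to 489 CPM in WT and 379 to 392 CPM in the deletion.

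**Figure D3:**
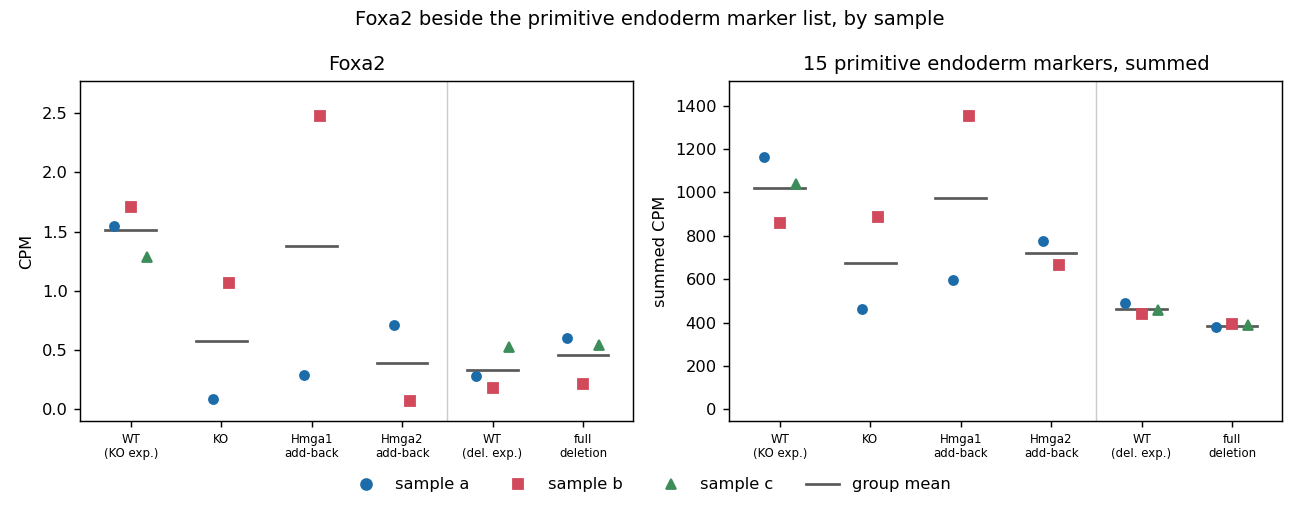
CPM of Foxa2 (left) and summed CPM of 15 primitive endoderm markers (right) in each of the 15 samples, with symbols for the sample letter and a bar for the group mean. The b sample is the higher one on both sides in KO and in the Hmga1 add-back, and the a sample is the higher one on both sides in the Hmga2 add-back.

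Among the secreted proteins, Fgf8, a ligand of the primitive streak (chr19:45811288-45817405, minus strand), had 5, 1 and 4 counts in WT of the KO experiment and 1 and 0 in KO. The Hmga1 add-back had 7 and 0 counts, and the Hmga2 add-back 4 and 0. KO lay below all WT samples, with a pooled ratio of 0.141 (counting interval 0.0032 to 0.988), but KO b and WT b are 0 and 1 count. In the full-deletion experiment the order was the opposite. WT had 0 counts in all 3 samples and the deletion had 2, 2 and 3, with a counting interval of the pooled ratio that starts at 1.36. An exact permutation test gave p = 0.1, the smallest possible here and fixed by the lack of overlap. Without the filter on low counts the adjusted p was 0.126. Cer1, described above, had 1, 3 and 4 counts in WT and 1 and 0 in KO. The Hmga1 add-back had 0 and 0 counts, and the Hmga2 add-back 3 and 2. KO and the Hmga1 add-back lay below all WT samples, and the counting interval of the latter's pooled ratio to WT reached up to 0.835. The edge of the separation of KO from WT is one of depth, since KO a (0.0281 CPM) and WT a (0.0316 CPM) both had 1 count. In batch b, WT had 3 counts and KO 0. Cer1 had 0 counts in all 6 samples of the full-deletion experiment, which allows up to 0.0516 CPM in WT and 0.0486 CPM in the deletion.

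Read as a group, the question of each comparison was whether loss or return of an Hmga protein moved the mesendoderm genes. KO against WT called 3 of 13912 genes (0.0216%) and none of the 3 tested here. KO lay below all WT samples for 4 of 10 (T, Foxa2, Fgf8 and Cer1), against 9.87% of all genes with a count, and above them for none, against 9.93%. With WT c included, the pooled count ratio of KO to WT was under 1 for 9 of 10 genes, all but Gsc. It was under 1 for 60.9% of the 20778 genes with a count and 54.2% of the 5423 in the same range of level. The mean CPM was also lower in KO for 9 of 10, but here Eomes was the exception, so Eomes and Gsc have no direction that holds in both measures. The counting interval lay below 1 for T, Evx1, Foxa2 and Fgf8. A counting interval leaves out any spread between samples beyond counting. Over the better counted genes, samples of a group in this experiment differed with a chi-square of 49.3 to 106 per degree of freedom. Those pairs of samples are from different batches, and the value for genes with few counts was not measured. The median log2 fold change of the 3 tested genes was -0.55 against -0.01 over all genes.

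The add-backs asked whether Hmga1 or Hmga2 returned these genes to their WT level. The Hmga1 add-back called 0 of 13912 genes (0%) against KO by edgeR, 390 at an unadjusted p under 0.05 and 2 by DESeq2. The Hmga2 add-back called 1 (0.00719%), and neither comparison called a mesendoderm gene. For the libraries labelled Hmga1 add-back, Eomes, Gsc and Mesp1 lay above both KO samples (3 of 10, against 8.44% of all genes) and none lay below (7.49%). In the Hmga2 add-back Eomes, Gsc, Cer1 and Lhx1 lay above both KO samples (4 of the 9 with a count, against 10.8%) and none lay below (10.1%). T stayed at 4 pooled counts in the Hmga1 add-back, the same number as in KO. Against WT, the Hmga1 add-back called 2 genes (0.0144%) and the Hmga2 add-back 9 (0.0647%), again without a mesendoderm gene. Eomes and Gsc were above all WT samples in both add-backs, against 7.91% (Hmga1 add-back) and 10.9% (Hmga2 add-back) of all genes. Below all WT samples lay T and Cer1 in the former (7.72%) and Foxa2 in the latter (11.0%). The comparisons with WT share their WT samples, and those with KO share their KO samples.

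**Figure D4:**
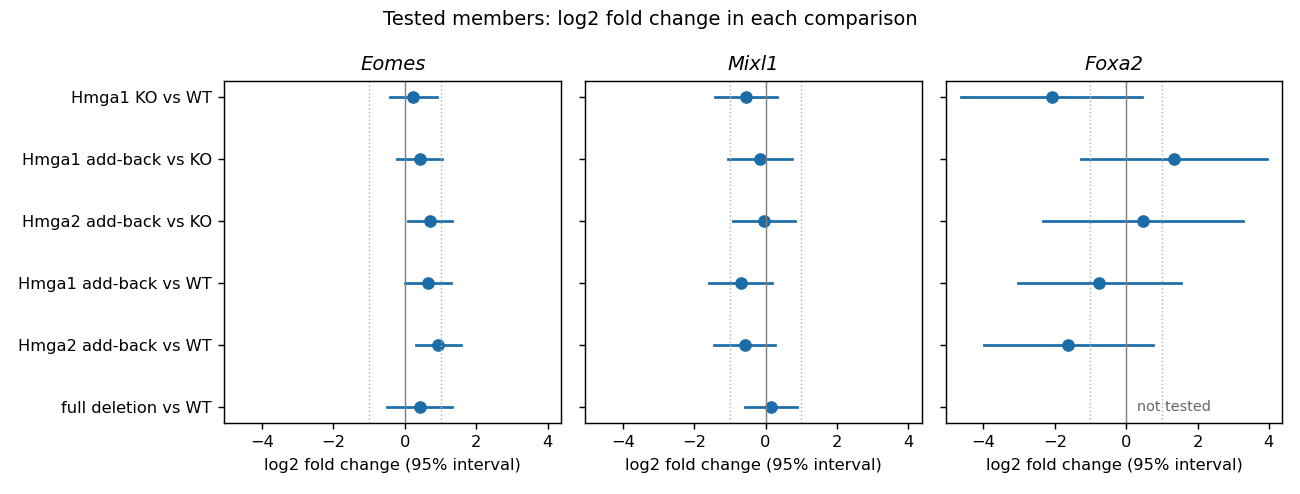
Log2 fold change (points) with its 95% interval (lines) of Eomes, Mixl1 and Foxa2 in each comparison, from edgeR's quasi-likelihood fit, with dotted lines at a 2-fold change. The interval of Eomes lies above 0 in the Hmga2 add-back against WT (0.31 to 1.58), and Foxa2, which was not tested in the full-deletion experiment, has the widest intervals.

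The full deletion asked the same question in a separately made clone. It called 9 of 13098 genes (0.0687%), none of them a mesendoderm gene, and Eomes and Fgf8 lay above all WT samples (2 of the 9 with a count, against 21.7% of all genes) and none below (19.1%). The difference between the KO effect and the full-deletion effect, tested in a joint fit of both experiments at an adjusted p under 0.05, was called for 42 of 13671 genes (0.307%). It was -0.17 for Eomes (SE 0.50, adjusted p = 0.862), -0.69 for Mixl1 (SE 0.48, adjusted p = 0.425) and -2.46 for Foxa2 (SE 1.39, adjusted p = 0.341), on the log2 scale. Foxa2 entered this fit with a mean of 15.6 counts over all samples.

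WT levels also differed between the experiments. TMM factors were set within each experiment, so CPM and ratios across the 2 experiments do not share a common scaling. All 10 genes had a lower mean CPM in WT of the full-deletion experiment, as did 73.5% of all 20707 genes with a count and 77.2% of the 5243 genes in the same range of WT level. The pooled count ratio was 0.157 for T (counting interval 0.0403 to 0.446), 0.231 for Foxa2 (0.136 to 0.376), 0.543 for Eomes (0.419 to 0.698) and 0.648 for Mixl1 (0.466 to 0.894). For Lhx1, which had 0 counts in WT of the full-deletion experiment, the counting interval reached up to 0.387. All 15 primitive endoderm markers were lower as well, 14 of them with no overlap between the WT samples of the experiments. Of other lists, 10 of 23 further mesoderm and endoderm genes, 11 of 29 signal genes and 4 of 12 pluripotency genes were lower without overlap. The share over all genes was not measured. Mean levels went from 59.7 to 3.37 CPM for Cubn, from 32.4 to 3.47 CPM for Dab2, from 6.47 to 0.296 CPM for Gata6 and from 4.42 to 0.558 CPM for Sox17. These were larger falls than that of Foxa2 (1.51 to 0.333 CPM). Sparc (341 to 222 CPM), Lamb1 (193 to 115 CPM) and Lama1 (230 to 88.5 CPM) fell by less than Foxa2, as did Hnf4a and Sox7. The part of the primitive endoderm markers in the levels of the mesendoderm genes was not tested. Experiment and culture cannot be told apart here, and no test was made. In RPKM, the order of the best measured genes in these WT samples was Mixl1 (0.451 ± 0.140), Eomes (0.362 ± 0.186) and Foxa2 (0.156 ± 0.083), and only the difference between Mixl1 and Foxa2 exceeded the sum of both SDs.

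Of the 29 genes of the inducing signals (Nodal, Wnt, BMP and Fgf ligands, receptors and effectors), 26 were tested in each experiment and none was called in either loss line. In KO against WT, 12 were higher and 14 lower, 1 and 4 of them at an unadjusted p under 0.05, with a median log2 fold change of -0.09. The smallest adjusted p belonged to Sp5, a direct target of Wnt signals (log2 fold change -3.15, SE 0.66, adjusted p = 0.130), and Id1, a target of BMP signals (-1.58, SE 0.36, adjusted p = 0.161). Sp5 was at 2.91, 2.48 and 1.37 CPM in WT and 0.14 and 0.68 in KO, while the Hmga1 add-back had 0.11 and 0.67 CPM and the Hmga2 add-back 0.18 and 0.35. None of these 6 samples overlapped WT, and all 6 come from the KO clone. Of the 29 genes, 5 lay below all WT samples in KO and 0 above, against 9.87% and 9.93% of all genes. The share of all genes that lay below WT in all 6 samples was not measured. Sp5 overlapped in the full-deletion experiment, with 0.95, 1.53 and 0.72 CPM in WT and 0.73, 0.69 and 1.09 CPM in the deletion. In the full deletion, 3 signal genes had an adjusted p under 0.05 but did not pass 0.01. They were Bmp4, a ligand that induces mesoderm (-1.43, adjusted p = 0.0137), Fgf4, an ESC growth factor (-0.70, adjusted p = 0.0279), and Lefty1, a Nodal inhibitor (1.05, adjusted p = 0.0400). Nodal itself differed from WT by -0.16 in KO (SE 0.14, adjusted p = 0.661) and 0.22 in the deletion (SE 0.24, adjusted p = 0.512).

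Of 24 further genes of mesoderm and endoderm, 23 were in the tables. The KO experiment tested 17 and the full-deletion experiment 13, and none was called. In KO 14 of 17 were lower, 8 at an unadjusted p under 0.05, and 3 were higher, 1 at that level, with a median log2 fold change of -0.86. Over all 13912 genes, 774 were lower and 973 higher at an unadjusted p under 0.05. The smallest adjusted p belonged to Gata6 (-2.39, SE 0.77, adjusted p = 0.296), an endoderm factor, and Fst (-1.83, SE 0.61, adjusted p = 0.304), the activin antagonist follistatin. Gata4, Gata6, Sox17 and Pdgfra, 4 genes of this list, are also on the primitive endoderm list, of which 12 of 13 tested were lower in KO with a median of -1.503. Dab2, an endocytic adaptor of visceral endoderm, had a log2 fold change of -2.30 (adjusted p = 0.298) there. In the full deletion 6 of 13 further mesendoderm genes were higher and 7 lower. Otx2, an anterior epiblast and forebrain factor, had the smallest adjusted p (1.34, SE 0.26, adjusted p = 0.0334), from 7.35 to 15.8 CPM in WT to 31.2 to 33.0 CPM in the deletion. It was also above every WT sample in KO (27.9 and 37.4 CPM against at most 27.0 CPM). Otx2 was followed in the deletion by Fst (-1.05, adjusted p = 0.0982). On the primitive endoderm list, Lamb1 (-0.47, adjusted p = 0.0433) and Dab2 (0.82, adjusted p = 0.0842) led.

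Markers of other states were read in the same fits and none was called in either loss line. Of the pluripotency genes, 9 of 12 were higher in KO with a median log2 fold change of 0.06, led by Tbx3 (0.51, adjusted p = 0.274) and Dppa3 (1.83, adjusted p = 0.353), and in the deletion Dppa3 (0.96, adjusted p = 0.0293) and Klf4 (-0.27, adjusted p = 0.0944) led. Of the trophoblast markers, Ascl2 (0.82, adjusted p = 0.381) and Tead4 (-0.48, adjusted p = 0.401) led in KO, and Tead4 (0.45, adjusted p = 0.0649) and Tfap2c (0.31, adjusted p = 0.0661) in the deletion. Neural markers were led by Sox1 (-1.37, adjusted p = 0.197) and Pax6 (-0.96, adjusted p = 0.371) in KO and by Tubb3 (-0.30, adjusted p = 0.0991) and Nes (-0.44, adjusted p = 0.192) in the deletion. Of the 10 fibroblast genes, which would mark feeder cells, 5 were tested in KO and all 5 were higher, with a median log2 fold change of 0.48. Col1a1 (1.03, adjusted p = 0.450) and Acta2 (0.64, adjusted p = 0.542) led in KO, and Fn1 (0.59, adjusted p = 0.0594) and Acta2 (0.68, adjusted p = 0.114) in the deletion. Fn1, which ESC also transcribe, made up most of the fibroblast sum of 388 to 1035 CPM, while Dcn and Col3a1 had a mean of 0 CPM in KO, in the deletion and in its WT. WT of the KO experiment held some of these transcripts, with 0 to 0.747 CPM of Col3a1, 0 to 0.166 CPM each of Dcn and Lum and 0 to 0.0633 CPM of Postn. In WT, Dcn, Lum and Postn stayed under the 0.233 CPM that a count of 0 allows in WT b. They were at 0 in KO and both add-backs, as Evx1 was in KO. Their part in the WT levels of T and Evx1 was not tested.

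The genes with the pattern most like that of Eomes over the 15 samples were Ypel3, Spint2 and Itprip. Their log2 CPM, centred within each experiment, differed from that of Eomes by a root mean square of 0.240, 0.243 and 0.248, against a median of 0.579 over 8854 genes. T was not used for this because it did not pass the filter.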

How the data were processed

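Total RNA was depleted of ribosomal RNA, made into strand-specific ScriptSeq v2 libraries and sequenced as single-end reads. The authors trimmed 3 bases from the 5′ end of each read, aligned the rest to mm9 with Bowtie through QuasR (a read with several matches kept 1, picked at random), and deposited raw counts per UCSC known gene on the same strand. bcl2fastq 2.17 is named in the submitters' processing notes. The members and gene lists were chosen with earlier results of these data known.

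The quasi-likelihood test of edgeR 4.0.16 (R 4.3.3) was applied to genes whose mean count was 10 or more (TMM, Benjamini-Hochberg adjustment over all genes tested), with a call at an adjusted p under 0.01 and at least 2-fold. The KO experiment was fitted with all 9 samples and the batch letter as a term, as the study's methods do, the full-deletion experiment with its 6 samples and no block. Deviations of same-lettered samples correlated with r = 0.319 to 0.758 in the KO experiment. Adjusted p-values measure the spread between these cultures. Counts were also given as CPM and, over the exon width in the tables, RPKM. Intervals for counts are exact (95%). The named genes were all members and, of every other list, each gene called and the 2 with the smallest adjusted p in each loss comparison. The add-back comparisons with WT, and the genes given an exact test, were added after the counts had been seen. Alternatives were other scalings and filters, DESeq2 1.42.0, limma 3.58.1, the block, other thresholds, fewer groups, and leaving out each sample. Mixl1 and Fgf8 promoters were not analysed here. No protein sequence was used here.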

Additional observations from a re-analysis of the deposited data

Results flagged for a closer look

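Fgf8 is named because its direction was opposite in the loss lines. Both KO samples had a lower CPM than every WT sample of their experiment, and all 3 full-deletion samples had more than their WT, by 0.115 CPM on average (0.115 ± 0.026 CPM, SD, n = 3, against 0 counts in WT). Eomes and Fgf8, 2 of the 9 genes with a count, lay above all WT samples in the full deletion, against 21.7% of all genes. The difference between the loss lines was not tested, since Fgf8 did not pass the filter on low counts, and the values rest on 10 and 1 counts in WT and KO and on 0 and 7 counts in WT and the full deletion.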

How the results depend on the processing

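No mesendoderm gene was called in any comparison under any alternative tried. The number of genes called in KO against WT was 17 without the filter, 1 with no replicate block, 76 with DESeq2 and 9 at an adjusted p under 0.05, and leaving out 1 sample gave 0 to 62 (62 without WT b). For the Hmga1 add-back against KO it was 2 with DESeq2 and 4 with only the groups compared. For the Hmga2 add-back against KO it was 3 without the filter, 10 with DESeq2, 2 with limma, 2 at an adjusted p under 0.05, and 0 to 2 with 1 sample left out. For the Hmga1 add-back against WT it was 6, 76 and 6 without the filter, with DESeq2 and at 0.05, and 2 to 37 with 1 sample left out (37 without WT b). For the Hmga2 add-back against WT it was 22, 4, 109, 21 and 100 without the filter, with no replicate block, with DESeq2, at 0.05 and with only the groups compared, and 3 to 105 with 1 sample left out (105 without WT b). For the full deletion it was 3 with summed counts, 31 without the filter, 4 with the replicate block (letters there are no pairs, r = -0.0546 to 0.0703), 463 with DESeq2, 363 at 0.05, and 1 to 362 with 1 sample left out. For the difference between the loss effects it was 26 with summed counts and 7 to 667 with 1 sample left out. The values 362 and 667 are without WT b of the full-deletion experiment. The cause of these differences was not tested.

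Some signs turned, and since no mesendoderm gene was called, none of these could be a called change. In the Hmga2 add-back against KO, Mixl1 was 0.0186 with summed counts, and Foxa2 was -0.0778 with no replicate block and -0.33 with limma. With 1 sample left out, the log2 fold change of Eomes in KO against WT was -0.0412 to 0.56 and in the difference between the loss effects -0.44 to 0.19. That of Foxa2 was -0.37 to 3.33 in the Hmga1 add-back against KO, -3.27 to 2.24 in the Hmga2 add-back against KO and -2.31 to 0.39 in the Hmga1 add-back against WT, and that of Mixl1 was -0.30 to 0.0771 and -0.50 to 0.21 in the add-backs against KO. A lone sample left in a group is assumed to vary like the other groups. Apart from these, every other alternative kept the sign, and 7 of 10 genes in the KO experiment and 8 of 10 in the full-deletion experiment were too low to test at this depth.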
